A study of Mus musculus with 33 samples.

Results

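Granins are the acidic proteins of dense-core vesicles, and prohormone processing enzymes are the proteases and trimming enzymes that cut neuropeptide precursors inside the same vesicles. The 10 genes described here were Pcsk1n, Vgf, Chga, Chgb, Scg2, Scg3, Scg5, Pcsk1, Pcsk2 and Cpe, out of 38355 genes in the count tables of aged mice and 40678 loci in the FPKM tables of young mice. The set was chosen by the level of Pcsk1n in APP mice, which was lower after JQ1, and the other 9 joined it as members of the same vesicle system. All 10 were found in both sets of tables and all 10 passed the filters on low values.

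Neuropeptides are made as long precursors that enter dense-core vesicles at the trans-Golgi network, where granins aggregate and help the vesicle to form. The convertases encoded by Pcsk1 and Pcsk2 cut the precursors at basic residues, and carboxypeptidase E removes the basic residues that remain. Both convertases have a dedicated partner, since the proSAAS protein of Pcsk1n inhibits the first and the 7B2 protein of Scg5 is a chaperone for the second. In the hippocampus these vesicles carry peptides such as somatostatin and neuropeptide Y, as well as the growth factor BDNF.

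RNA was sequenced from microdissected hippocampal CA1 in 2 experiments. In the first, APP mice aged 8 to 10 months received JQ1, an inhibitor of BET bromodomain proteins, at 50 mg/kg for 10 days (n = 6) or vehicle with 10% DMSO (n = 6), and WT mice of that age received vehicle (n = 4). APP mice carry a mutant human APP transgene driven in neurons by the Thy1 promoter, and the strain label of the WT mice names the transgenic line too, so they were taken as WT from their titles. In the second experiment C57B/6JRj WT mice of 3 months received JQ1 at 50 mg/kg (n = 8) or vehicle with 10% DMSO (n = 8) for 13 days. By the study's methods the young mice were males and the aged mice females. Per the study's methods the mice were killed a day after a water maze test, and the tissue was not sorted, so fewer cells of a type and less RNA per cell cannot be told apart. The labels name no batch of library preparation. The 5th WT mouse in the labels, replicate 2, was not analysed here.

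Reads on genes numbered 14605459 to 25339482 per aged library (n = 16), and the depth of the young libraries, given as FPKM (reads scaled to transcript length and depth), is unknown. No gene of the 7 CA1 pyramidal markers was at 0 throughout a group, and the same was true of markers of the neighbouring dentate gyrus and CA3. A library labelled JQ1-treated APP, replicate 4, went against its genotype label. In it Thy1 stood at 820 CPM (reads of a gene scaled to a common library size), against 1618 to 2342 in the other 11 APP libraries and 841 to 1070 in WT. The astrocyte gene Gfap was at 322 CPM, against 1262 to 5166 in other APP libraries and at most 321 in WT, and the microglial receptor gene Trem2 at 14.7, against 68.6 to 147 and 15.4 to 18.9. Since groups come from the labels, the library stayed in the group, and values without it are given beside the main results of the 10 genes and where a list's call changed. In WT replicate 4, Ttr, a choroid plexus gene, reached 3065 CPM. It was at 21.3, 9.44 and 12.8 CPM in WT replicates 1, 3 and 5, and between 3.40 and 115 CPM in all libraries of APP mice.

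Promoters were compared because granin genes are classical targets of the cyclic AMP response element (CRE), the binding sequence of CREB. Of the 10 genes, 8 had a RefSeq promoter (build GRCm38.p6), all but Vgf and Cpe. The 250 bases before the start are shown for Pcsk1n, which gave the set its rule, Chga, whose level followed Vgf within groups, and Scg2 and Chgb, which hold a full CRE. They lie at chrX:7919572-7919821 (plus strand), chr12:102554691-102554940 (plus), chr1:79440027-79440276 (minus) and chr2:132781392-132781641 (plus), and capitals mark the CRE, its core TGACG and the GC box, on either strand.
Pcsk1n: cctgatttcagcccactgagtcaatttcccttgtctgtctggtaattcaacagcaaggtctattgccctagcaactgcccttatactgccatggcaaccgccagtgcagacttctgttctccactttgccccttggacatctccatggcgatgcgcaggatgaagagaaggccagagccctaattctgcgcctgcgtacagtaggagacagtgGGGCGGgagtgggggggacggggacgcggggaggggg
Chga: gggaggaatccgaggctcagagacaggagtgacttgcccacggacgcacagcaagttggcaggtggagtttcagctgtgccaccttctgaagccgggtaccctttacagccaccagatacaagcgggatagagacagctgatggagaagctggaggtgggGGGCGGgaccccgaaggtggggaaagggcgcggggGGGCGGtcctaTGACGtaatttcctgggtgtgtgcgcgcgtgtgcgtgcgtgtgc
Scg2: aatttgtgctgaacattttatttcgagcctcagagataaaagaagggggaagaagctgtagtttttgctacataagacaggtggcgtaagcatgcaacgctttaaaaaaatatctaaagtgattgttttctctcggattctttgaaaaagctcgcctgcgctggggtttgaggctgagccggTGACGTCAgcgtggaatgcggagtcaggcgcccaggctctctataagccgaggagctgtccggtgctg
Chgb: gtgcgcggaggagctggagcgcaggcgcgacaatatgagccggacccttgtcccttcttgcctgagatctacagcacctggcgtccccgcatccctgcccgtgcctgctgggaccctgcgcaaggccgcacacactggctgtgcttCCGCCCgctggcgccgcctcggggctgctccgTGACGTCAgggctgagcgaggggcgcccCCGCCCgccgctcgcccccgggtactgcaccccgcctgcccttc
The full CRE, TGACGTCA, was found in 3 of the 8 promoters, 61 bases before the start in Scg2, 65 in Chgb and 71 in Pcsk1. Of all 27025 promoters of this length, 1.62% held it. The core TGACG, which lies within the CRE too, was the only match in 4 more (Scg3, Scg5, Chga and Pcsk2), in Chga 40 bases before the start, and 17.9% of all promoters held it. Pcsk1n held neither, and its window had 1 GC box (GGGCGG), a motif that 32.9% of all promoters held. These are matches of letters and not measured binding.

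Levels were compared between genes per kilobase of exon. In all 5 groups Cpe was first, with a mean of 1081 ± 88.5 CPM per kilobase (SD, n = 6) in vehicle-treated APP mice and 1236 ± 56.8 FPKM (SD, n = 8) in vehicle-treated young mice. Scg5, Chgb, Scg3 and Scg2 followed in this order in every group. In vehicle-treated APP mice they ran from 157 ± 25.3 for Scg5 down to 76.1 ± 22.4 CPM per kilobase for Scg2 (SD, n = 6). Neighbours in this order often overlapped, as Scg5 and Chgb did in all 5 groups. Pcsk1 was last in each group, at 2.17 ± 0.665 CPM per kilobase in vehicle-treated APP mice (SD, n = 6). Pcsk2, the other neuronal convertase, was at 34.1 ± 2.84 on the same scale in the same mice, and at 62.6 ± 3.98 FPKM against 9.78 ± 1.72 for Pcsk1 in vehicle-treated young mice (SD, n = 8). Pcsk2 was therefore above Pcsk1, without overlap, in all 5 groups. Vgf and Pcsk1n, the inhibitor of the first convertase, lay between Chga and Pcsk1 in all 5 groups, and their ranges overlapped where they were neighbours, except in vehicle-treated young mice.

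The first comparison asked what JQ1 changed in APP mice. It is the one that chose the genes, so its values are a description with no test. Pcsk1n was at 37.9 (lowest), 53.1 (median) and 65.3 CPM (highest) in the 6 JQ1-treated APP mice. In the 6 vehicle-treated APP mice it was at 73.2, 88.8 and 142 CPM. The groups did not overlap, and the mean was 51.8 ± 10.3 against 95.5 ± 25.9 CPM (SD), which is 1.84-fold lower after JQ1 (log2 fold change -0.88 ± 0.17, SE). The library labelled replicate 4 was the lowest of the JQ1 group, and without it the log2 fold change was -0.80 ± 0.16. The WT mean of 69.7 ± 11.9 CPM (SD, n = 4) lay between those of the APP groups, and the WT values of 55.5, 66.5, 73.2 and 83.8 CPM overlapped with both. In the annotation 135 bases of the Pcsk1n exons are shared with Eras on the opposite strand, and whether counting used strand is not given in the sources used here.

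Vgf encodes a granin-like precursor of secreted peptides that is induced by neurotrophins and neuronal activity. It stood at 56.6, 64.1 and 76.3 CPM (lowest, median, highest) in JQ1-treated APP mice and at 80.2, 95.8 and 189 in vehicle-treated APP mice. These groups did not overlap either, and Vgf was 1.72-fold lower after JQ1 (log2 fold change -0.78 ± 0.17, SE). The highest vehicle value, 189 CPM, came from replicate 1, with the other 5 at 110 or below. Without that mouse the log2 fold change of Vgf was -0.56, and without the library labelled JQ1-treated APP replicate 4, which was the highest of its group, it was -0.83.

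Of all 16962 genes tested in this comparison, 184 (1.08%) were past an adjusted p of 0.05 (edgeR's quasi-likelihood test, Benjamini-Hochberg), 79 of them lower after JQ1 (0.466%), and 1.15% were lower without overlap. Beside this background 2 of the 10 genes, Pcsk1n and Vgf, were past the threshold and lower without overlap. With a library left out 0 to 2 were past it, Pcsk1n in 15 of 16 fits and Vgf in 8. Without the library labelled JQ1-treated APP replicate 4, Vgf was not past it (adjusted p = 0.054). Nothing is read from these counts, since the comparison chose the set. Both genes are rich in G and C, Vgf with 64.8% of its transcript bases, above 99.6% of the genes tested, and Pcsk1n with 57.3%. When GC content and length were corrected for, Pcsk1n had a log2 fold change of -0.69, again a description, since the comparison chose this gene. Vgf then had one of -0.40 and was not past the threshold (adjusted p = 0.59).

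In the other 8 genes the ranges with JQ1 and with vehicle overlapped in APP mice. Chga and Chgb, the chromogranins, had log2 fold changes of -0.23 ± 0.16 and -0.22 ± 0.15 (SE). Without vehicle-treated APP replicate 1 these were -0.018 and -0.088. Scg2, the precursor of secretoneurin, was at 0.10 ± 0.14, and its JQ1 range of 170 to 247 CPM lay within the vehicle range of 156 to 304. Scg3, which binds chromogranin A to the vesicle membrane, and Cpe were both at 0.20, with SE of 0.08 and 0.09. Scg5 was at 0.18 ± 0.24, Pcsk2 at 0.07 ± 0.12 and Pcsk1 at -0.02 ± 0.29. The convertase transcripts thus differed little in the mean, and the SE of Pcsk1 was the widest of the 10. In JQ1-treated APP mice Pcsk1 ranged from 4.52 to 20.9 CPM, and the top value was the library labelled replicate 4. Without it Pcsk1 was at -0.25 ± 0.28, Pcsk2 changed sign to -0.02, and the other 6 of these genes ran from -0.28 (Chga) to 0.24 (Scg3). The median log2 fold change was 0.02 over the 10 genes and -0.001 over all genes tested, and without the library labelled replicate 4 it was -0.14 and 0.0059.

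**Figure D1:**
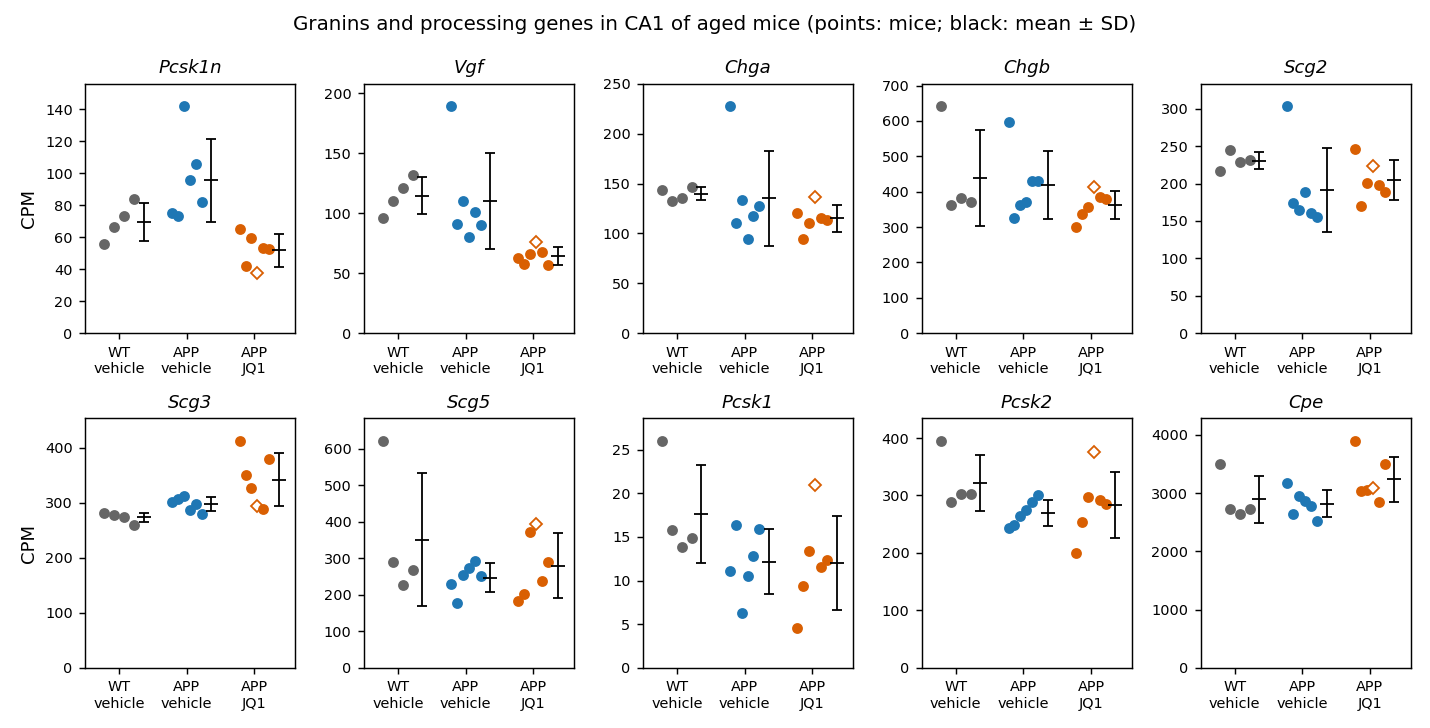
Levels of the 10 genes in CA1 of aged mice, in CPM on a linear axis from 0, for vehicle-treated WT (n = 4), vehicle-treated APP (n = 6) and JQ1-treated APP mice (n = 6). Each point is a mouse, black marks are the mean ± SD, and the open diamond is the library labelled JQ1-treated APP replicate 4. For Pcsk1n the JQ1-treated mice lie between 37.9 and 65.3 CPM and the vehicle-treated APP mice between 73.2 and 142.

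The second comparison asked whether the APP genotype changed these genes under vehicle. It shares its APP mice with the first, so the 2 sets of values are not independent. No gene of the 10 passed the threshold, against 2.57% of all genes tested (edgeR's quasi-likelihood test), 1 of the 10 had an unadjusted p under 0.05 (14.4% of all genes), and DESeq2 called 0 of the 10. That gene was Pcsk1n, at 95.5 ± 25.9 CPM in APP and 69.7 ± 11.9 in WT mice (SD, n = 6 and 4), with a log2 fold change of 0.45 ± 0.19. Its difference is a description, since the APP mice helped to choose it, and all 6 APP mice were above the WT median while the ranges overlapped.

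Of the granins, Vgf (-0.06 ± 0.19), Chga (-0.05 ± 0.18) and Chgb (-0.06 ± 0.17) had log2 differences near 0 between vehicle-treated APP and WT mice. Their 95% intervals ran from -0.45 to 0.33, from -0.42 to 0.32 and from -0.42 to 0.30. Scg2 was at 156, 169 and 304 CPM (lowest, median, highest) in vehicle-treated APP mice and at 217, 229, 232 and 246 CPM in WT mice. All APP values except that of replicate 1, the highest, were below the WT range. Its log2 fold change was -0.27 ± 0.15 (adjusted p = 0.44), and without that mouse it was -0.45 (adjusted p = 0.022), so this call rests on a single library. Without the mouse numbered 1 in each of the vehicle groups it was -0.49 (adjusted p = 0.069).

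The processing genes Scg5, Pcsk1, Pcsk2 and Cpe had lower means in vehicle-treated APP than in WT mice without passing the test. Scg5 had a log2 fold change of -0.51 ± 0.27 and Pcsk1 of -0.54 ± 0.32 (adjusted p = 0.41 and 0.48). In WT mice Scg5 was at 622, 289, 228 and 268 CPM and Pcsk1 at 26.0, 15.8, 13.9 and 14.8 CPM, in the order of replicates 1, 3, 4 and 5. WT replicate 1 was far above the other 3 in both, and without it the log2 differences were -0.10 and -0.30. Pcsk2 was at -0.25 ± 0.13, with all 6 APP mice below the WT median, and at -0.15 without WT replicate 1. Cpe was at -0.04 ± 0.10, with 4 of 6 APP mice above the WT median, and at 0.05 without WT replicate 1.

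The third comparison set JQ1-treated APP mice against vehicle-treated WT mice, and it shares mice with both comparisons above. Of the 10 genes, 1 was lower and none higher past the threshold, where 2.06% of all genes tested were past it and 0.13% were past it and lower. This was Vgf, at 96.3, 110, 121 and 132 CPM in WT mice, all above the 56.6 to 76.3 CPM of the JQ1-treated APP mice. Its log2 fold change was -0.84 ± 0.18 (adjusted p = 0.025, edgeR's quasi-likelihood test), with 6 of 6 mice below the WT median. The call was lost without any 1 of JQ1-treated APP replicates 1, 2 and 6 and WT replicates 3, 4 and 5. Over the single libraries left out in turn the adjusted p ran from 0.0012 to 0.11 and the log2 fold change from -0.92 to -0.76. The adjusted p was 0.012 without the library labelled JQ1-treated APP replicate 4 and 0.17 after the correction for GC content and length, with a log2 fold change of -0.60.

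Scg3 went the other way. It was at 288, 338 and 412 CPM (lowest, median, highest) in JQ1-treated APP mice, all above the 261 to 281 CPM of WT mice, and groups without overlap in either direction were seen for 3.71% of all genes tested. The log2 fold change of Scg3 was 0.32 ± 0.09 with an adjusted p of 0.081, and without the library labelled replicate 4 it was 0.35 (adjusted p = 0.036), where 3.84% of all genes passed. DESeq2 gave Scg3 an adjusted p of 0.023 with all 16 libraries. Pcsk1n, described and not tested, was at -0.43 ± 0.18, and at -0.36 without that library. The remaining 7 genes had log2 fold changes between -0.56 (Pcsk1) and 0.16 (Cpe), and none passed the threshold. With the library labelled replicate 4 left out, Pcsk1 was at -0.80 ± 0.30 (adjusted p = 0.20), and without WT replicate 1 it was at -0.32 (adjusted p = 0.71).

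**Figure D2:**
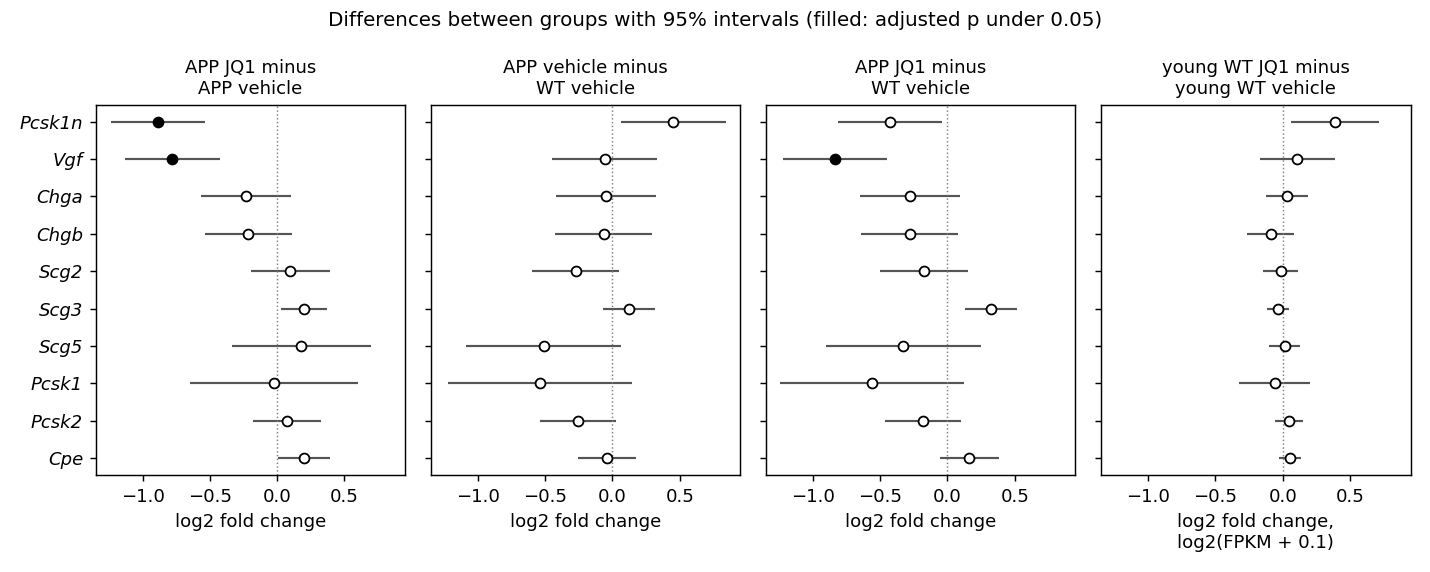
Log2 fold change of each gene in the 4 comparisons (horizontal axis, log2 scale), with 95% intervals as lines and genes past an adjusted p of 0.05 as filled points. Pcsk1n and Vgf lie at -0.88 and -0.78 in the comparison that chose the genes, and in young WT mice all 10 points lie between -0.09 and 0.39 with none filled.

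The fourth comparison, JQ1 against vehicle in young WT mice, used other mice, and the rule made no use of it. None of the 10 genes passed the threshold, and 1 of all 18420 loci tested did (0.00543%, limma on log2 values of FPKM + 0.1). For the 10 genes 1 unadjusted p was under 0.05, where 4.65% of all loci had one. It belonged to Pcsk1n, which ran from 10.9 to 19.8 FPKM with JQ1 (mean 15.5 ± 2.85, SD) and from 8.53 to 17.4 with vehicle (mean 12.1 ± 3.34). Its log2 fold change was 0.39 ± 0.15 (95% interval 0.06 to 0.71, adjusted p = 0.98), with 7 of 8 JQ1-treated mice above the vehicle median. The direction was opposite to that in APP mice, and the difference between the experiments, which also differ in age, sex (males here and females among the aged mice, per the study's methods), days of treatment and quantification, was not tested. The young locus of Pcsk1n ends at chrX:7928607 and the annotated gene at chrX:7924410. That of Vgf starts at chr5:137019323 and the gene at chr5:137026392, so the units differ in span too.

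Vgf in young mice had a median of 30.3 FPKM with JQ1 (19.3 to 39.1) and 27.7 with vehicle (21.8 to 34.0). Its log2 fold change was 0.11 ± 0.13, and its 95% interval ran from -0.17 to 0.39. The other 8 genes had changes between -0.09 (Chgb) and 0.05 (Cpe). For Scg3, Cpe, Pcsk2 and Scg5 the bound of a 95% interval farthest from 0 was 0.15, that of Pcsk2. The intervals of Pcsk1, from -0.32 to 0.21, and Chgb, from -0.26 to 0.08, were wider.

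**Figure D3:**
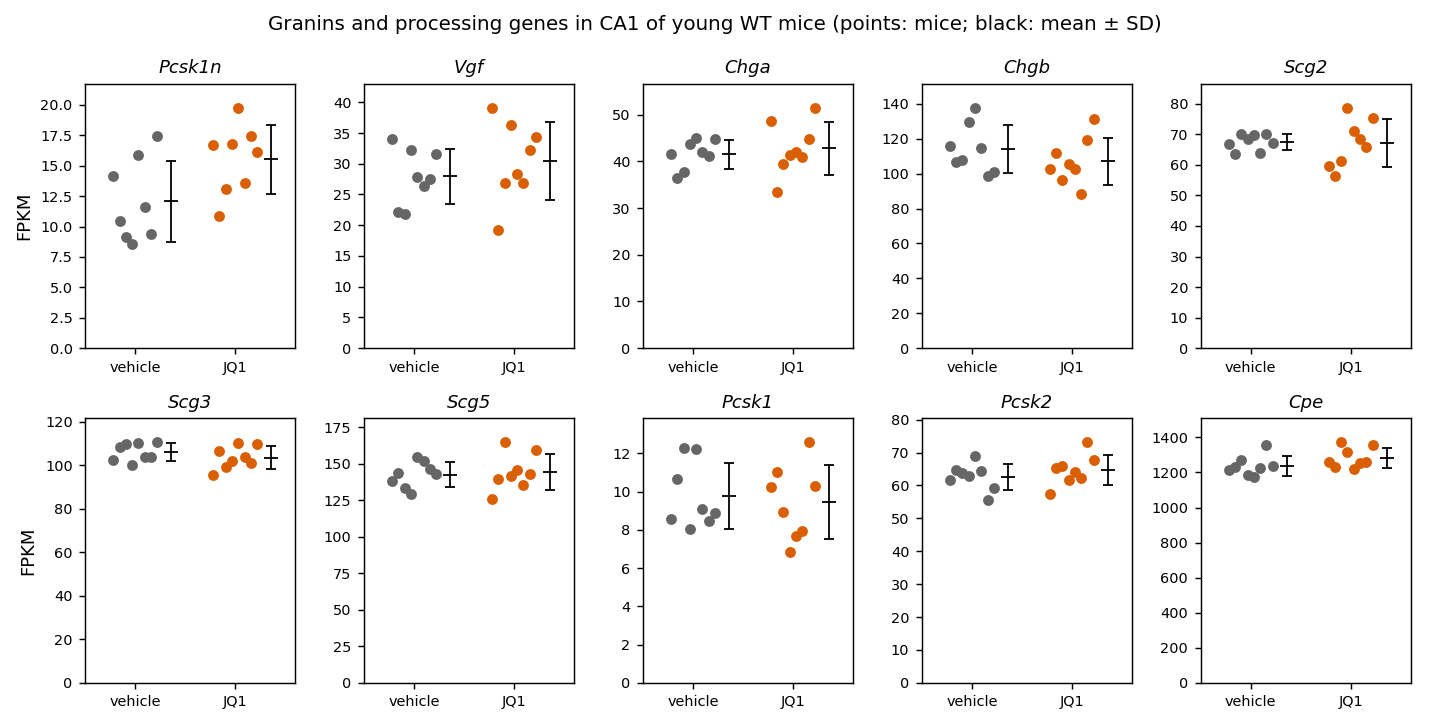
Levels of the 10 genes in CA1 of young WT mice, in FPKM on a linear axis from 0, with vehicle or JQ1 (8 mice each). Each point is a mouse and black marks are the mean ± SD. All pairs of groups overlap, and Pcsk1n has a mean of 15.5 FPKM with JQ1 and 12.1 with vehicle.

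The genes did not vary as 1 block among mice of the same group. By Dixon's criterion 2 vehicle-treated mice stood apart, each in a different subset of genes. Vehicle-treated APP replicate 1 was above its group mean by 0.84 in Vgf, 0.81 in Chga, 0.71 in Scg2 and 0.54 in Chgb on the log2 scale, and by 0.02 in Scg3 and -0.08 in Scg5. In the same mouse the neuronal pentraxin gene Nptx2 was at 127 CPM, against 14.6 to 28.1 in the other 5 mice. The activity-regulated genes Npas4 and Fos were at 75.8 and 61.3 CPM, against 11.4 to 27.2 and 6.84 to 19.1. Egr1, another gene of this kind, was at 146 CPM there, within the 105 to 171 CPM of the other 5 mice. The peptide precursors Npy and Penk were at 197 and 231 CPM, against 51.7 to 65.0 and 24.2 to 45.4. Penk was high in JQ1-treated APP replicate 1 too, at 213 CPM, against 28.7 to 41.2 in the rest of its group. That mouse was at -0.04 from its group mean in Vgf, 0.07 in Chga and 0.28 in Scg2. WT replicate 1 was above its group mean by 0.94 in Scg5, 0.61 in Pcsk1, 0.59 in Chgb and 0.30 in Pcsk2, but not in Vgf (-0.24), and its Nptx2 (26.6 CPM) was the lowest of the 4 WT mice. JQ1-treated APP replicate 1 was at -1.26 from its group mean in Pcsk1, -0.56 in Scg5 and -0.49 in Pcsk2. The library labelled replicate 4 of that group was above it by 0.94, 0.56 and 0.43 in the same 3 genes. Whether these features have a part in the levels of the granins was not tested.

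**Figure D4:**
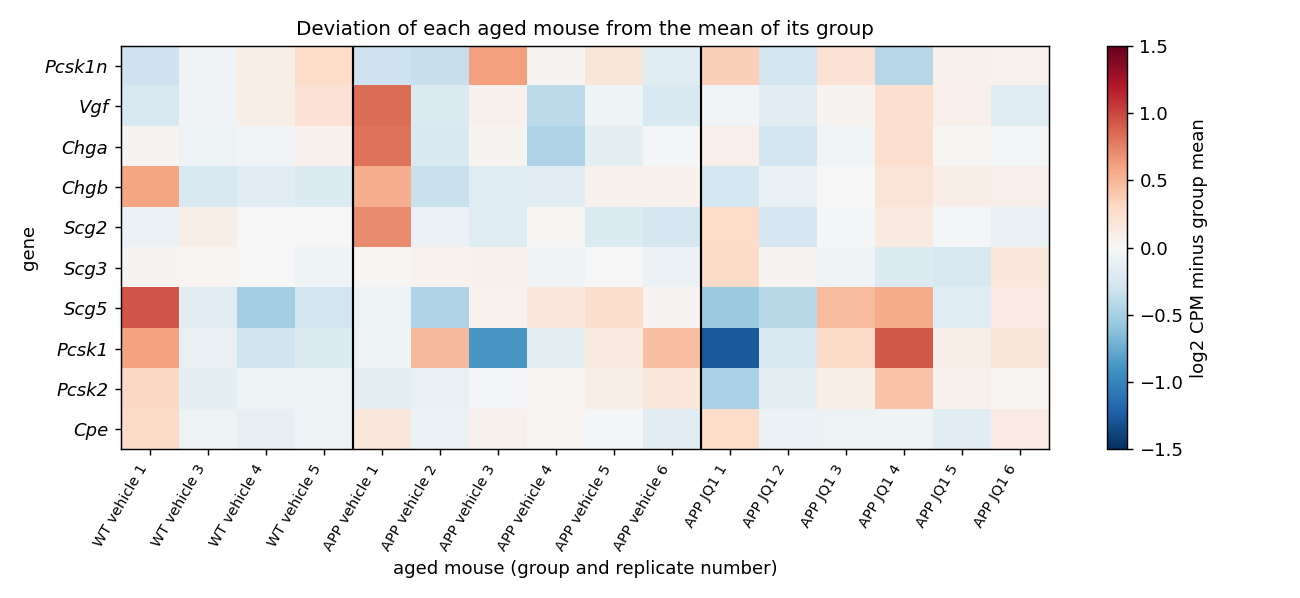
Deviation of each aged mouse (columns) from the mean of its group for the 10 genes (rows), in log2 CPM, with red above and blue below the mean. APP vehicle replicate 1 is red in Vgf (0.84), Chga (0.81) and Scg2 (0.71), and WT vehicle replicate 1 in Scg5 (0.94).

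Across the 16 aged mice, after group means were removed, Vgf and Chga had the highest correlation of the 45 pairs (r = 0.90, rho = 0.62). It was 0.60 without the 2 mice farthest from the median and 0.82 without the 2 vehicle-treated mice numbered 1. In the 16 young mice the same pair had an r of 0.83, the highest there too. Scg2 had an r of 0.76 with each in aged mice, which fell to 0.34 with Vgf and 0.36 with Chga without the 2 vehicle-treated mice numbered 1. In young mice these values were 0.42 and 0.41. Pcsk2 had an r of 0.82 with its chaperone gene Scg5, of 0.82 with Pcsk1 and of 0.54 with Chgb in aged mice. Without the 2 mice farthest from the median these were 0.72, 0.55 and 0.80. In young mice they were 0.43, 0.57 and 0.65. Pcsk1n and Pcsk1, the inhibitor and its protease, had a negative r of -0.72 in aged mice (-0.56 without the 2 farthest, -0.66 without the library labelled replicate 4), and -0.04 in young mice. Pcsk1n and Vgf had an r of -0.05 in aged mice and 0.55 in young mice. These values describe 16 mice each, share depth and composition of the libraries, and carry no test.

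**Figure D5:**
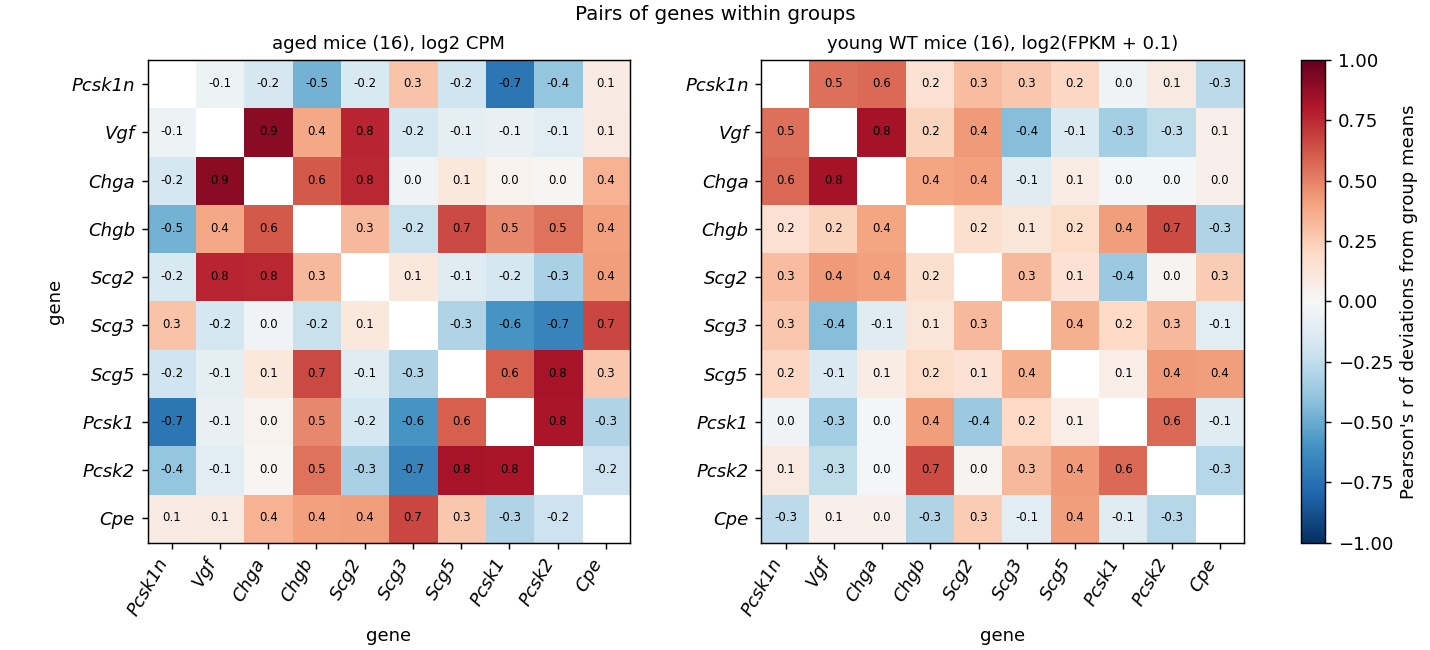
Pearson's r between genes after group means were removed, in 16 aged mice (left, log2 CPM) and 16 young mice (right, log2 of FPKM + 0.1), with red positive and blue negative. Vgf and Chga have the highest r in both (0.90 and 0.83), and Pcsk1n and Pcsk1 have -0.72 in aged and -0.04 in young mice.

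The 5 genes most like Pcsk1n by Pearson's r over the 16 aged mice, again after group means were removed, were Frs3 (0.91), Ckb (0.90), Thap3 (0.89), Gm26901 (0.87) and Gcat (0.84). None of the other 9 genes was among them. Ckb, the brain creatine kinase, also had an r of 0.90 with Pcsk1n in young mice, and for Thap3 and Gcat the value was 0.42 in both. All but Gm26901 had a GC content of 56.8% or more, and the median over all genes tested was 50.2%.

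Genes around the same vesicles were taken from fixed lists. Of the other processing enzymes, 16 of 17 were tested in aged mice and 13 in young mice, and none passed the threshold in any of the 4 comparisons. Pcsk4, a convertase best known from germ cells, had a log2 fold change of -0.54 ± 0.18 under JQ1 in APP mice (adjusted p = 0.14). Ctsl, a lysosomal protease that can also cut precursors, was at 160 ± 26.6 CPM in vehicle-treated APP and 106 ± 18.4 in WT mice (SD), a log2 difference of 0.59 (adjusted p = 0.083). Without the library labelled JQ1-treated APP replicate 4 Ctsl passed, at 0.58 (adjusted p = 0.045) and, in JQ1-treated APP against WT mice, at 0.67 (adjusted p = 0.021). Of 22 genes for the making and release of dense-core vesicles none passed with all libraries. Without that library Ica1, of a vesicle-associated protein, passed at -0.37 in vehicle-treated APP and -0.42 in JQ1-treated APP against WT mice (adjusted p = 0.048 and 0.027). Beside Ctsl and Ica1, 3.84% of all genes tested passed in JQ1-treated APP against WT mice without that library. In vehicle-treated APP against WT mice 154 to 601 genes passed with a single library left out. Ptprn, a membrane protein of these vesicles, was at 488 ± 66.9 CPM in JQ1-treated and 628 ± 73.2 in vehicle-treated APP mice (SD, n = 6 each, adjusted p = 0.073). The median log2 fold change of this list was 0.01 under JQ1 in APP mice and -0.10 in vehicle-treated APP against WT mice, where the medians of all genes were -0.001 and 0.0093.

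Of 18 neuropeptide precursor genes, 1 passed the threshold in any of the comparisons of aged mice. It passed in JQ1-treated APP against WT mice, where 2.06% of all genes tested were past it and 0.13% were past it and lower. Sst, the somatostatin gene of a class of interneurons, was at 163 ± 7.42 CPM in JQ1-treated APP mice and 228 ± 41.4 in WT mice (SD, n = 6 and 4), with a log2 fold change of -0.48 ± 0.11 (adjusted p = 0.029). Its JQ1 range of 156 to 174 CPM overlapped the WT range of 170 to 266, and without the library labelled replicate 4 its log2 fold change was -0.48 too (adjusted p = 0.027). In JQ1-treated against vehicle-treated APP mice it was at -0.32 ± 0.10 (adjusted p = 0.12), and in young mice at 0.15 ± 0.08 (adjusted p = 0.98). The summed level of 9 interneuron markers, Sst among them, ran from 867 to 1136 CPM in JQ1-treated APP, from 889 to 1098 in vehicle-treated APP and from 1054 to 1165 in WT mice. Their part in the change of Sst was not tested.

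Since Vgf is induced by neuronal activity, 15 activity-regulated genes were set beside it. None passed the threshold under JQ1 in APP mice, 13 of 15 had a negative log2 fold change, and the median was -0.53, or -0.69 without the library labelled replicate 4. Over all genes tested 1.08% passed, and the median was -0.001, or 0.0059 without that library. The summed level of the 15 genes was 388 to 960 CPM in JQ1-treated APP mice, with that library the highest. It was 559 to 1187 in vehicle-treated APP mice, with replicate 1 the highest, and the list is not given without that mouse. Against WT mice none passed with all libraries, and without the library labelled replicate 4 Nr4a1, an immediate early gene that encodes a nuclear receptor, did, at -1.12 (adjusted p = 0.032). In that fit 3.84% of all genes tested passed. In young mice none passed, 14 of 15 were positive and the median was 0.12, against 0.0025 over all loci tested. Of 7 transcriptional regulators, among them Creb1 and Rest, none passed in any comparison, with Creb1 at 0.28 ± 0.11 (adjusted p = 0.20) under JQ1 in APP mice.

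Markers of other cell types were given for the same libraries. The summed level of 7 CA1 pyramidal markers ran from 835 to 1181 CPM in JQ1-treated APP, from 1006 to 1222 in vehicle-treated APP and from 926 to 1321 in WT mice, and none of the 7 passed the threshold in any comparison. For 8 pan-neuronal markers the sums were 6522 to 7974, 6411 to 7622 and 7551 to 9209 CPM in the same order, with none of 8 past the threshold. Where 2.57% of all genes tested passed the threshold, 5 of 8 microglial markers were higher in vehicle-treated APP than in WT mice. The 8 had summed levels of 650 to 1286 against 295 to 341 CPM. Of 8 astrocyte markers 2 were higher, with summed levels of 3515 to 7639 against 2352 to 2501 CPM. None of the microglial or astrocyte markers passed when JQ1 and vehicle were compared in APP mice. Read quality differed between groups too. Reads outside genes had a median of 21.4% of uniquely aligned reads in JQ1-treated APP, 18.6% in vehicle-treated APP and 18.0% in WT mice, and alignments that were not unique one of 31.6%, 28.8% and 27.6% of all alignments tallied. With the share outside genes as a covariate, the log2 fold change under JQ1 in APP mice was -0.79 for Pcsk1n and -0.69 for Vgf. The part of alignments that were not unique and of cell composition in the levels of the 10 genes was not tested.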

How the data were processed

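CA1 RNA was sequenced on a HiSeq2000. Alignment by the authors used STAR and the mm10 build (2 mismatches at most), and the aged samples were deposited as raw htseq counts per gene. The young samples were deposited by the authors as FPKM from cufflinks/cuffdiff, normalized to transcript length and depth. The submitters' processing notes also name CASAVA 1.8.2 and TopHat. Values were at hand for 32 of 33 listed samples. Groups came from the labels. The labels number the replicates and do not say more of their source, so p-values measure the spread between these samples.

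The 5 htseq lines that name no gene were left out. Of these, reads outside genes made up 15.4% to 26.9% of uniquely aligned reads per library, and alignments that were not unique 26.7% to 36.4% of all alignments tallied. A symbol was found for 36602 of 38355 counted genes. Counts were fitted with edgeR 4.0.16 (TMM, filterByExpr, robust quasi-likelihood test, 16962 genes, 1 fit of 3 groups), and CPM use TMM library sizes. FPKM were fitted with limma 3.58.1 (trend, robust) on log2(FPKM + 0.1), for 18420 loci with at least 0.5 FPKM in at least 8 of 16 samples. On this scale the change of low genes is understated. Adjusted p-values are Benjamini-Hochberg over all genes, with a threshold of 0.05. At the aged depth 3 reads are at most 0.205 CPM. Levels per kilobase used the exonic length of GENCODE M21, whose transcripts also gave GC content. Of the loci of the young mice, 3188 had no name and 1048 several, and genes in those were not matched.

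An item of the label check is not reported here. The genes and lists were chosen with earlier results of these data known. Named are the 10 genes, and per list and comparison up to 4 genes past the threshold with the largest change, or else up to 2, of which not all are printed. Single libraries and genes used to describe them (Thy1, Nptx2, Npy, Penk, Fos, Egr1), as well as genes that passed only without a library (Ica1, Nr4a1), were chosen after values were seen. Alternatives were DESeq2 1.42.0, RLE size factors, other filters, pseudocounts and rescalings, a fit of the 2 groups compared, the replicate number as a block, correcting for GC content and exonic length, a covariate for the share of reads outside genes, and leaving out each sample. Scripts were tested on simulated data. R 4.3.3, Python 3.11.15, pandas 2.3.3, numpy 2.4.6, scipy 1.17.1 and matplotlib 3.10.9 were used.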

Additional observations from a re-analysis of the deposited data

Results flagged for a closer look

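For each of the 10 genes and 5 groups, the highest and lowest sample were compared with the rest of the group by Dixon's criterion. Of 50 such groups 8 held a sample that stood apart, where chance gives about 1 in 20, or 2.5, if the groups are independent. The 50 reuse the same mice over correlated genes, so they are not independent and no excess is read from the count. All 8 were highest values and came from 2 vehicle-treated aged mice.

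In vehicle-treated APP mice replicate 1 stood apart in Vgf (189 CPM, the other 5 at 80.2 to 110), Chga (228 CPM, the others at 94.0 to 133) and Scg2 (304 CPM, the others at 156 to 189). In vehicle-treated WT mice replicate 1 stood apart in Chgb (642 CPM, the other 3 at 362 to 381), Scg5 (622 CPM, 228 to 289), Pcsk1 (26.0 CPM, 13.9 to 15.8), Pcsk2 (395 CPM, 289 to 302) and Cpe (3499 CPM, 2634 to 2730).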

How the results depend on the processing

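Whether replicate numbers pair the mice was not settled. In JQ1-treated and vehicle-treated APP mice, correlations of same-numbered deviations ran from -0.11 to 0.34, with 3 of 6 over 0.1. Their mean was 0.12, against -0.02 for different numbers, and 5 of 12 mice were closest to their own number. Fits with the replicate number as a block are therefore given beside those without. All alternatives were planned except leaving out both vehicle-treated mice numbered 1, which was chosen after seeing the data. Where a value moved, the cause was not tested. Under JQ1 in APP mice 184 genes were past the threshold, and 749 with DESeq2, 517 with the share of reads outside genes as covariate, 336 without both mice numbered 1, 87 with the replicate block, 40 with GC correction, 36 with both block and GC correction, and 65 to 446 with a library left out. Of the 10 genes 2 were past it, 1 with no filter, with only the 2 groups, with the block, with GC correction and with both, and 0 to 2 with a library left out. With no filter, only the 2 groups, the block, GC correction or both, the 1 gene was Pcsk1n. Nothing is read from this, since the comparison chose that gene.

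In vehicle-treated APP against WT mice the counts were 436, 792 (DESeq2), 679 (2 groups), 35 (replicate block), 71 (block and GC correction), 0 without both mice numbered 1, and 154 to 601 with a library left out, with 0 of the 10 genes, or 0 to 1. The log2 fold change changed sign, never past the threshold, for Vgf (0.010 with the block, -0.28 to 0.016 with a library left out), Chga (0.016 with the covariate, -0.26 to 0.027), Chgb (0.037 without both mice, -0.19 to 0.17) and Cpe (0.00074 with block and GC correction, 0.017 without both mice, -0.097 to 0.054).

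In JQ1-treated APP against WT mice they were 349, 790 (DESeq2), 227 (2 groups), 21 (replicate block), 66 (block and GC correction), 112 (covariate), 162 without both mice, and 11 to 651 with a library left out. Of the 10 genes 1 passed, 2 with DESeq2, 0 with the block, GC correction, both or the covariate, and 0 to 2 with a library left out. Vgf was then at -0.74, -0.60, -0.50 and -0.69 (adjusted p = 0.16, 0.17, 0.40 and 0.10). Scg5 reached 0.092 without both mice (-0.50 to 0.091 with a library left out).

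In young mice 1 locus passed, 0 without the filter, with the replicate block or with block and GC correction, and 0 to 2 with a library left out. Vgf was at -0.019 with GC correction, with or without the block, a check that is void because GC content was known for 74.4% of loci. With a library left out Chga ran from -0.0054 to 0.083, Scg2 from -0.049 to 0.020, Scg5 from -0.013 to 0.042 and Pcsk1 from -0.12 to 0.0044. The lowest count of the 10 genes in an aged library was 112 reads, for Pcsk1, and depth is unknown in young mice.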
